A study of Mus musculus with 61 samples.

Results

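RNA was compared between mouse forebrain at E13.5 and E14.5 (embryonic days, called late here) and at E10.5 and E11.5 (called early). The comparison holds 7 of the 61 libraries of the series, chosen by the tissue and stage in their labels: 4 late libraries, with 2 at each stage, and 3 early ones, with 1 at E10.5 and 2 at E11.5. The rest of the series is forebrain at other stages, midbrain, hindbrain and liver, followed to the day of birth (P0). The labels describe every library of both groups as fetal forebrain of a given stage, and no strain, genotype, treatment, sex or pooling of embryos is given in the sources used here. Libraries of a stage are numbered as replicates, and no label ties them to different embryos or litters. A p-value therefore reflects how much these libraries vary, which may include technical variation. In the fits of late against early groups, the p-value and SE also take in the change between the stages pooled in a group. Every value is in TPM, the deposited unit of relative transcript abundance, which keeps no read count, so the depth behind a value is unknown. Between 14456 and 14653 genes reached 1 TPM in late libraries, and between 13780 and 14357 in early ones. The E10.5 library differed from the other early ones in its pseudogenes, with Rpl30-ps9 at 879 TPM and Gm12191 listed at 0, where the E11.5 libraries had 0 and 1.49 TPM of Rpl30-ps9 and 260 and 473 TPM of Gm12191. The E13.5 libraries, with 309 and 278 TPM of Rpl30-ps9 and 143 and 157 TPM of Gm12191, held both. Counts of calls in the gene lists, and calls of named genes, are therefore also given without the E10.5 library where they changed, and the size of many changes was smaller without it.

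The forebrain forms from the front end of the neural tube, whose lining of apical progenitors first divides to make more of itself and then gives rise to neurons. In its dorsal wall, proneural factors such as Neurog2 push cells through intermediate progenitors into glutamatergic neurons of the future cortex, while in its ventral wall the Dlx factors lead to GABAergic neurons of the striatum and the cortical interneurons. Fgf, Wnt, Bmp and Shh signals from a few small centres pattern these walls before and while neurons form.

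The tissue label was checked against regional markers. None of 16 Hox genes, which pattern the hindbrain and spinal cord, reached 1 TPM in 3 of the 7 libraries. The summed level of 8 forebrain markers ran from 478 to 668 TPM in late and from 539 to 617 TPM in early libraries. Genes of the neighbouring regions were not absent. A list of 15 midbrain and hindbrain regional genes summed to 15 to 24.8 TPM in late and 34.0 to 72.1 TPM in early libraries. Of its 8 tested members 1 was called higher and 3 lower in late forebrain, and 1 passed the filter through 1 group alone.

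Of 14946 genes with at least 1 TPM in 3 of the 7 libraries, 1742 (11.7%) were called higher and 743 (4.97%) lower in late than in early forebrain. A gene was called at an adjusted p below 0.05 by limma, a linear model fitted over all genes, and a change of at least 1 on the log2(TPM + 1) scale, which understates the change of low genes. For 1738 of the higher and 738 of the lower genes no late library overlapped an early one, as was so for 8400 of all tested genes (56.2%). Without the E10.5 library the counts were 1371 and 685, of which 1341 and 605 were the same genes. Replicates of a stage correlated at 0.990 to 0.994 across genes, and late with early libraries at 0.850 to 0.945. The split between higher and lower depended on scaling. TPM as deposited put 70.1% of the calls on the higher side with a median over all genes of 0.05, and quantile normalization put 56.1% there with a median of -0.06 (1345 higher and 1052 lower). Median-of-ratios scaling gave a median of -0.01. Most lists below kept the direction with more calls under both scalings. The exceptions were the apical progenitor list, with 3 higher and 4 or 5 lower, the Cajal-Retzius list, with 2 and 2 under quantile normalization, and the marker lists of endothelium and pericytes, with 1 higher and 2 lower under quantile normalization (endothelium also under median-of-ratios scaling).

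**Figure D1:**
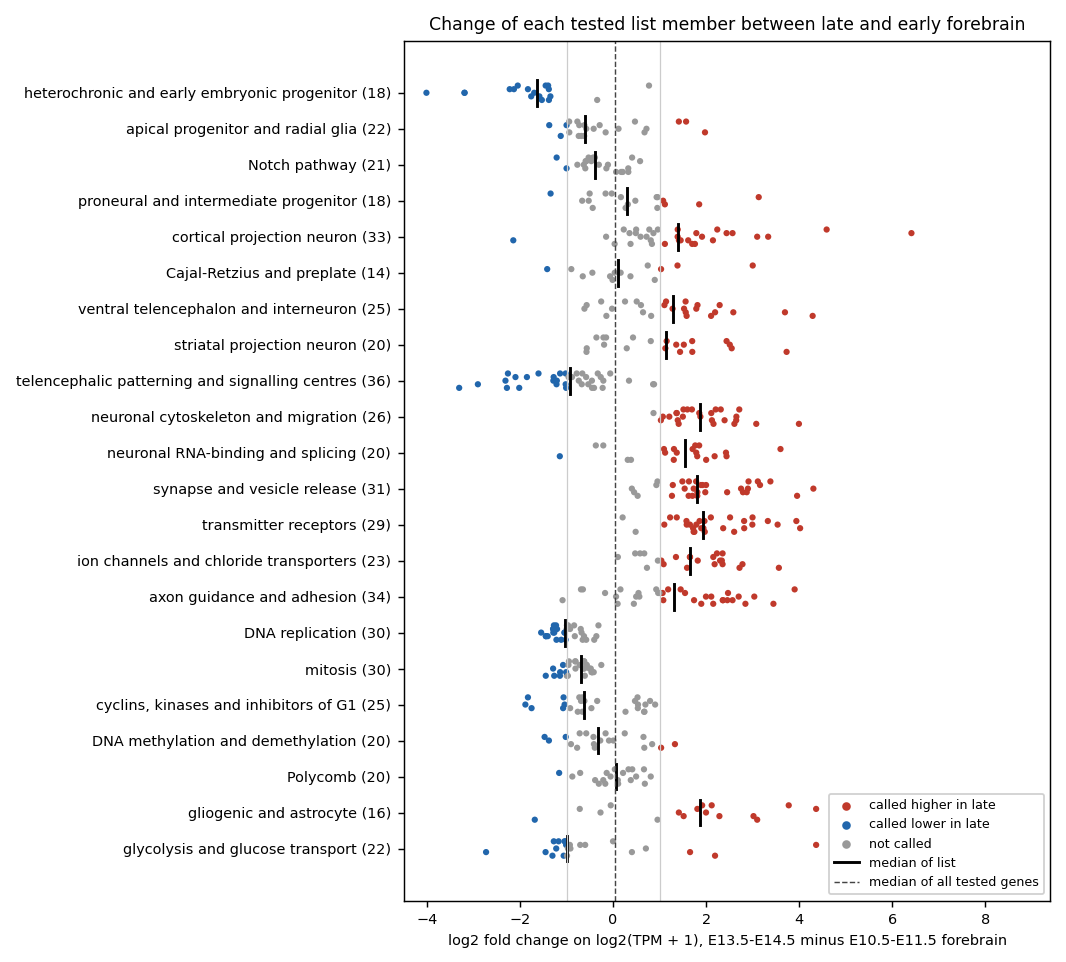
Log2 fold change on log2(TPM + 1) of each tested member of 22 gene lists, late (E13.5 and E14.5, 4 libraries) minus early (E10.5 and E11.5, 3 libraries) forebrain, with the number tested beside each name; black bars are list medians, and grey lines mark the fold threshold of 1. Neuronal lists lie to the right, with medians from 1.32 to 1.94 for the 6 lists from cytoskeleton to axon guidance, and heterochronic, patterning and cell cycle lists lie to the left.

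Genes of apical progenitors split. The neural stem cell factor Sox2 (ENSMUSG00000074637.6, mm10 chromosome 3, 34650405 to 34652461) had 108 and 115 TPM at E13.5 and 85.1 and 85.5 TPM at E14.5, against 112 TPM at E10.5 and 132 and 151 TPM at E11.5. The cortical progenitor factor Pax6 (ENSMUSG00000027168.17, chromosome 2, 105668900 to 105697364) had 130 and 137 TPM at E13.5 and 90.1 and 92.4 TPM at E14.5, against 197 TPM at E10.5 and 153 and 162 TPM at E11.5. The groups overlapped for Sox2 (-0.42 ± 0.15, SE) and not for Pax6 (-0.62 ± 0.18, adjusted p = 0.0206), and neither passed the fold threshold. Fabp7, a lipid-binding protein of radial glia (ENSMUSG00000019874.7, chromosome 10, 57784881 to 57788450), rose, with 1018 and 1132 TPM at E13.5 and 1529 and 1772 TPM at E14.5, against 102 TPM at E10.5 and 641 and 584 TPM at E11.5 (1.98 ± 0.59, adjusted p = 0.0225). This change was 1.12 without the E10.5 library, and the call was lost when either E14.5 library was left out (1.91 and 1.84).

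Of 22 tested members (24 listed) of the list of apical progenitors and radial glia, 3 were higher and 3 lower, beside 11.7% and 4.97% of all tested genes. The median was -0.60 beside 0.05 over all genes. With Fabp7 rose the radial glial glutamate transporter gene Slc1a3 (1.41) and the matrix protein gene Tnc (1.57). Lower were the epithelial cadherin gene Cdh1 (-1.37), Gli3, a repressor of Shh signalling (-1.13), and the Notch target Hes5 (-1.001). Cdh1 is also a gene of surface epithelium, whose markers are given below. Gli3 and Hes5 had overlapping groups. Gli3 lost its call without the E10.5 library (-0.76), and Hes5 lost its call without either E11.5 or either E14.5 library (-0.73 to -0.90) and stood at -1.38 without the E10.5 library. Counts of lower members of this list moved between 1 and 5 when single libraries were left out. The intermediate filament genes of neural progenitors, Vim at -0.73 and Nes at -0.94, were not called, and Nes was lower without the E10.5 library (-1.17). In the Notch list, which holds the ligands, receptors and targets that keep cells undifferentiated, 2 of 21 tested members were lower, Hes5 and the receptor gene Notch3 (-1.21), with a median of -0.39. Notch3 is also a pericyte gene. The ligand Dll1 (-0.39), the receptor Notch1 (-0.15) and the target Hes1 (-0.77) were not called.

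Genes known from young embryonic progenitors fell together. Hmga2, a chromatin protein of early neural stem cells (ENSMUSG00000056758.10, chromosome 10, 120361275 to 120476469), had 27.9 and 25.0 TPM at E13.5 and 12.2 and 11.3 TPM at E14.5, against 471 TPM at E10.5 and 206 and 281 TPM at E11.5. No late library came near an early one, and the change was -4.01 ± 0.38 (SE; adjusted p = 0.000168). Lin28a, an RNA-binding protein that blocks let-7 processing (ENSMUSG00000050966.5, chromosome 4, 134003330 to 134018841), had 0.32 and 0.34 TPM at E13.5 and 0.15 and 0.23 TPM at E14.5, against 26.6 TPM at E10.5 and 6.06 and 6.85 TPM at E11.5 (-3.20 ± 0.42, adjusted p = 0.000651). Crabp2, a carrier of retinoic acid (ENSMUSG00000004885.5, chromosome 3, 87948666 to 87953376), had 71.4 and 65.9 TPM at E13.5 and 42.0 and 46.7 TPM at E14.5, against 762 TPM at E10.5 and 432 and 408 TPM at E11.5 (-3.19 ± 0.26, adjusted p = 0.000115). For each of Hmga2, Lin28a and Crabp2 the E10.5 library was the highest of the 7.

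In all, 16 of 18 tested members of a list of 19 such genes, here called heterochronic, were lower and none higher, with or without the E10.5 library, and the median was -1.64. Among them were Sall4 (-2.22), the imprinted RNA H19 (-2.05), Lin28b (-1.76), Trim71 (-1.70), the growth factor Igf2 (-1.35) and all of Igf2bp1, Igf2bp2 and Igf2bp3 (-1.53, -1.45 and -1.38), which bind its mRNA. Of the 18, 2 passed the filter through the early libraries alone and so had to differ. Lin28a, under 1 TPM in every late library, was among them. Mycn (-0.34) was not called. Hmga1 (-2.13) may share reads with its near-identical copy Hmga1b, so its value is uncertain. Several of these genes are also known from embryonic mesenchyme, whose markers moved the same way: the summed level of 12 meningeal and fibroblast markers was 214 to 308 TPM in late and 431 to 661 TPM in early libraries, and its part in the result was not tested.

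The list of proneural factors and other genes of intermediate progenitors, here called proneural, did not move as a group. Of 18 tested members (20 listed) 4 were higher and 1 lower, with a median of 0.29. Without the E10.5 library 3 were higher and 2 lower, and under quantile normalization 2 were higher. Neurog2, the main dorsal proneural factor (ENSMUSG00000027967.7, chromosome 3, 127633135 to 127635631), had 98.2 and 109 TPM at E13.5 and 104 and 98.7 TPM at E14.5, against 25.2 TPM at E10.5 and 77.5 and 75.6 TPM at E11.5 (0.94 ± 0.35 SE, adjusted p = 0.0524). Eomes, a factor of intermediate progenitors (ENSMUSG00000032446.10, chromosome 9, 118478212 to 118486132), had 74.1 and 84.4 TPM at E13.5 and 87.1 and 74.3 TPM at E14.5, against 26.2 TPM at E10.5 and 46.5 and 55.4 TPM at E11.5. Its groups did not overlap, and at 0.95 ± 0.23 (adjusted p = 0.00892) it stood just under the threshold, which it passed without either E11.5 library. Neurog1 (ENSMUSG00000048904.4, chromosome 13, 56250478 to 56252163) fell to 9.05 and 10.3 TPM at E13.5 and 7.37 and 5.92 TPM at E14.5, against 20.3 TPM at E10.5 and 23.8 and 21.6 TPM at E11.5 (-1.34 ± 0.18, adjusted p = 0.000641). Neurog1 is also a gene of sensory placodes, whose 8 markers summed to 24.9 to 32.6 TPM in late and 61.1 to 97.5 TPM in early libraries.

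The largest rise in the proneural list was that of Sstr2, a somatostatin receptor (ENSMUSG00000047904.6, chromosome 11, 113619342 to 113626028). It had 42.8 and 44.2 TPM at E13.5 and 47.5 and 35.0 TPM at E14.5, against 1.12 TPM at E10.5 and 6.77 and 6.26 TPM at E11.5, and its groups lay far apart (3.13 ± 0.41 SE, adjusted p = 0.000648). Elavl2 (1.85), an RNA-binding protein of young neurons, and the lipase gene Mgll (1.07) rose, and Neurod1 (1.11) rose but not without the E10.5 library (0.72). Hes6 (0.06), a promoter of neuronal differentiation, and Btg2 (0.17) and Gadd45g (-0.16), known from progenitors about to make neurons, were not called.

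Genes of cortical projection neurons rose, 18 of 33 with 1 lower and a median of 1.39. In bulk tissue, fewer cells of a type and less RNA per cell cannot be told apart, and this holds for every group of genes described here. Neurod6, a factor of postmitotic cortical neurons (ENSMUSG00000037984.8, chromosome 6, 55677822 to 55681263), had 235 and 282 TPM at E13.5 and 462 and 436 TPM at E14.5, against 0.04 TPM at E10.5 and 7.27 and 6.43 TPM at E11.5. It rose by 6.41 ± 0.67 (SE; adjusted p = 0.000245), and by 5.44 without the E10.5 library. Its relative Neurod2 (ENSMUSG00000038255.6, chromosome 11, 98325415 to 98329648) had 67.8 and 73.9 TPM at E13.5 and 82.9 and 60.9 TPM at E14.5, against 0.10 TPM at E10.5 and 4.16 and 3.68 TPM at E11.5 (4.59 ± 0.48, adjusted p = 0.000249). Both genes were close to absent at E10.5, and no late library was near an early one.

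The genes that divide the cortical layers among them rose to different degrees. Bcl11b, of neurons that project to the brainstem and cord (ENSMUSG00000048251.11, chromosome 12, 107910403 to 108003602), had 59.2 and 63.6 TPM at E13.5 and 62.3 and 53.3 TPM at E14.5, against 6.49 TPM at E10.5 and 11.2 and 14.2 TPM at E11.5 (2.44 ± 0.22 SE, adjusted p = 0.000150). Tbr1, of the earliest deep-layer neurons (ENSMUSG00000035033.11, chromosome 2, 61802930 to 61814114), had 105 and 112 TPM at E13.5 and 109 and 96.6 TPM at E14.5, against 11.9 TPM at E10.5 and 45.4 and 51.2 TPM at E11.5 (1.76 ± 0.43, adjusted p = 0.00954). For Bcl11b and Tbr1 the groups did not overlap. Bcl11b is also in the list of striatal genes. It rose in midbrain (2.30) and hindbrain (1.90) as well, and the difference of forebrain from their mean was not called (0.34).

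Fezf2, which directs subcerebral projection neurons and is already on in progenitors, stood at 53.7 ± 4.4 TPM in late and 41.8 ± 0.6 TPM in early libraries (SD, n = 4 and 3), a difference of 0.35 and not called. Nfib (3.10), Bhlhe22 (3.33), the vesicular glutamate transporter gene Slc17a7 (2.24), Unc5d (2.57) and Mef2c (2.15) rose. The upper-layer factors Cux2 (0.96) and Rorb (0.72) were not called. Crym, a thyroid hormone binding protein, was the 1 member lower, at 5.40 and 5.44 TPM at E13.5 and 8.78 and 9.37 TPM at E14.5, against 70.5 TPM at E10.5 and 23.4 and 24.8 TPM at E11.5 (-2.15 ± 0.38 SE). Without the E10.5 library 16 members rose and 1 fell, and Neurod1 and the glutamate transporter gene Slc17a6 lost their calls. Of the 33 members, 2 passed the filter through the late libraries alone.

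Reln, the secreted guide of layer formation made by Cajal-Retzius cells (ENSMUSG00000042453.10, chromosome 5, 21884454 to 22344702), rose to 93.5 and 89.9 TPM at E13.5 and 107 and 124 TPM at E14.5, against 4.21 TPM at E10.5 and 18.3 and 20.6 TPM at E11.5 (3.001 ± 0.44 SE, adjusted p = 0.00103). The other genes of these early-born cells were mixed. Of 14 tested (16 listed), Trp73 (1.03) and Calb2 (1.38) also rose but lost their calls without the E10.5 library (0.59 and 0.92), Ccn2 fell (-1.42), and Lhx5 (-0.90), Ebf2 (-0.65), Ebf3 (-0.01) and Lhx1 (0.74) were not called. The median was 0.10.

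Genes of ventral forebrain neurons rose, 15 of 25 with none lower and a median of 1.28, and 12 without the E10.5 library. Sst, the peptide of a class of interneurons (ENSMUSG00000004366.3, chromosome 16, 23889573 to 23890958), had 96.6 and 97.5 TPM at E13.5 and 117 and 92.4 TPM at E14.5, against 1.34 TPM at E10.5 and 6.38 and 7.08 TPM at E11.5 (4.29 ± 0.39 SE, adjusted p = 0.000150). Gad1, which makes GABA (ENSMUSG00000070880.6, chromosome 2, 70553072 to 70602014), had 54.5 and 57.7 TPM at E13.5 and 70.3 and 71.8 TPM at E14.5, against 2.65 TPM at E10.5 and 16.6 and 18.02 TPM at E11.5 (2.58 ± 0.52, adjusted p = 0.00402). Lhx6, of interneurons from the medial ganglionic eminence (ENSMUSG00000026890.15, chromosome 2, 36081953 to 36105408), had 33.5 and 35.3 TPM at E13.5 and 34.9 and 26.0 TPM at E14.5, against 2.55 TPM at E10.5 and 9.90 and 8.90 TPM at E11.5 (2.19 ± 0.36, adjusted p = 0.00162). All late libraries lay above all early ones for Sst, Gad1 and Lhx6. Gad1 rose in midbrain (3.18) and hindbrain (2.87) as well, and the difference of forebrain from their mean was not called (-0.44). Of the 25 members, 1 passed the filter through 1 group alone.

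Several factors that act early in this lineage were not called. Dlx2 averaged 45.4 ± 11.6 TPM in late and 29.9 ± 11.96 TPM in early libraries (SD, n = 4 and 3; 0.64, adjusted p = 0.115) and Nkx2-1, which specifies the medial eminence, 28.3 ± 6.1 TPM in late and 28.5 ± 4.6 TPM in early libraries (-0.02). The ventral progenitor factors Gsx2 (-0.57) and Gsx1 (-0.26) were not called either. Dlx1 (1.52), Lhx8 (1.58) and Prox1 (1.14) rose but not without the E10.5 library (Dlx1 0.95).

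Striatal genes rose in 11 of 20 tested members and fell in none, with a median of 1.14 (10 without the E10.5 library), while 5 of the 20 passed the filter through the late libraries alone. Ppp1r1b, which encodes the dopamine-regulated phosphatase inhibitor DARPP-32 (ENSMUSG00000061718.8, chromosome 11, 98348404 to 98357796), had 13.2 and 13.2 TPM at E13.5 and 21.3 and 19.3 TPM at E14.5, against 0.09 TPM at E10.5 and 0.36 and 0.52 TPM at E11.5 (3.73 ± 0.21 SE, adjusted p = 3.03e-05). The dopamine receptor gene Drd1 (ENSMUSG00000021478.5, chromosome 13, 54051183 to 54055705) reached 1.28 and 1.40 TPM at E13.5 and 2.97 and 2.55 TPM at E14.5, against 0.02 TPM at E10.5 and 0.03 and 0.05 TPM at E11.5 (1.52 ± 0.21, adjusted p = 0.000738). Ppp1r1b and Drd1 were among these 5, so their late and early libraries had to differ. For each of the pair both E14.5 libraries stood above both E13.5 libraries. The peptide gene Tac1 (2.55), Isl1 (1.70) and Drd2 (1.12) rose as well, and Foxp1 (-0.15), Foxp2 (0.81) and the enkephalin gene Penk (0.29) were not called.

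**Figure D2:**
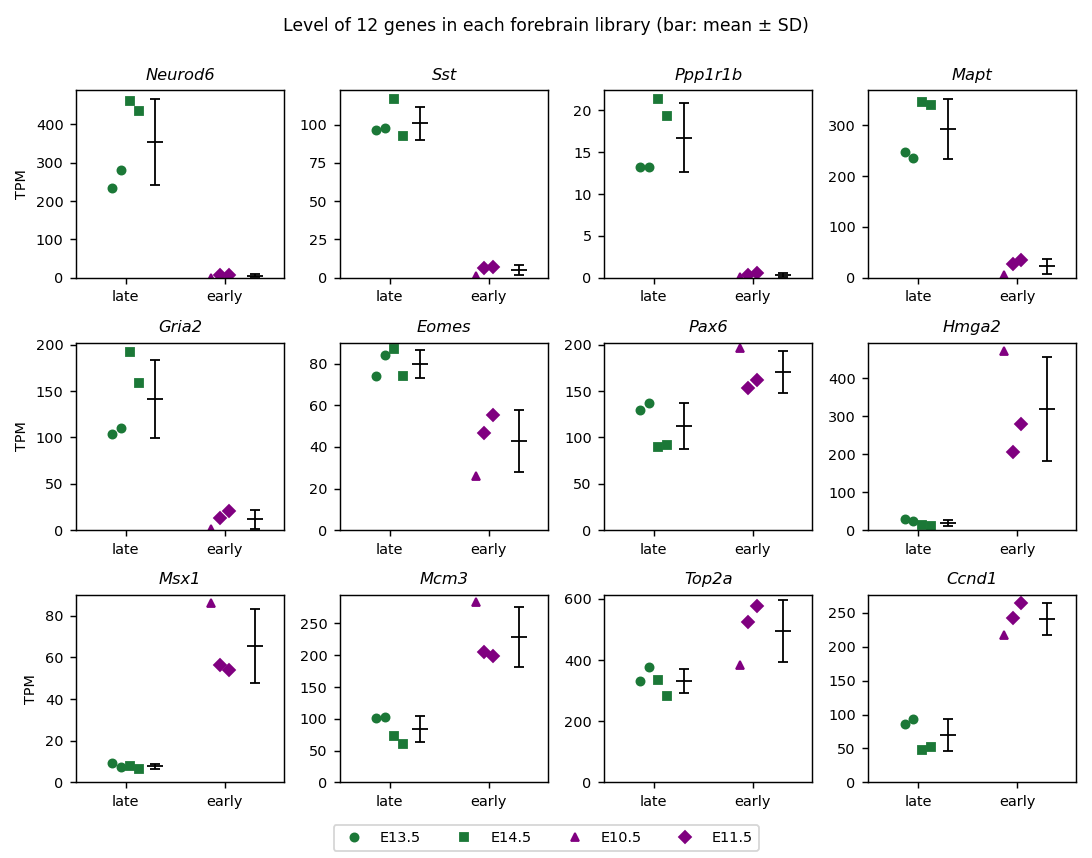
TPM of 12 genes in each forebrain library, with late libraries (green) left of early ones (purple) and a bar for the mean and SD of each group (n = 4 and 3). Neurod6, Sst, Ppp1r1b, Mapt and Gria2 are low in all 3 early libraries, Hmga2 and Msx1 are low in all 4 late ones, and Eomes, Pax6 and Top2a differ less.

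Genes of the patterning signals fell, 17 of 36 with none higher and a median of -0.92, and 17 again without the E10.5 library. Msx1, a target of Bmp signalling in the dorsal midline (ENSMUSG00000048450.10, chromosome 5, 37820485 to 37824583), had 9.27 and 7.34 TPM at E13.5 and 8.01 and 6.25 TPM at E14.5, against 85.9 TPM at E10.5 and 56.5 and 53.7 TPM at E11.5 (-2.91 ± 0.19 SE, adjusted p = 5.19e-05). Fgf8, made by the anterior signalling centre (ENSMUSG00000025219.9, chromosome 19, 45736798 to 45742915), had 1.57 and 1.03 TPM at E13.5 and 1.16 and 1.43 TPM at E14.5, against 17.6 TPM at E10.5 and 8.66 and 7.22 TPM at E11.5 (-2.31 ± 0.26, adjusted p = 0.000338). Both were several-fold lower in every late library than in any early one.

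Gli1, a target and readout of Shh signalling (ENSMUSG00000025407.6, chromosome 10, 127329882 to 127341974), had 4.30 and 4.31 TPM at E13.5 and 3.35 and 2.91 TPM at E14.5, against 20.5 TPM at E10.5 and 16.4 and 17.2 TPM at E11.5 (-2.02 ± 0.16 SE, adjusted p = 9.7e-05). Wnt8b, of the cortical hem at the medial edge of the cortex (ENSMUSG00000036961.4, chromosome 19, 44493472 to 44514273), had 11.9 and 8.67 TPM at E13.5 and 6.07 and 5.59 TPM at E14.5, against 38.0 TPM at E10.5 and 36.4 and 49.3 TPM at E11.5 (-2.26 ± 0.24, adjusted p = 0.000261). Gli1 and Wnt8b thus also had groups that did not overlap. Each signalling family had members that fell: Msx2 (-3.31) and Bmp4 (-2.10) of the Bmp pathway, Fgf17 (-1.85) and Spry1 (-1.02) of the Fgf pathway, Rspo1 (-2.28), Rspo2 (-1.14) and Lef1 (-1.02) of the Wnt pathway, and Shh itself (-1.21). Lef1 and the dorsal factor Dmrt3 (-1.01) lost their calls without the E10.5 library.

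Of the factors that lay out the cortex, Emx2 fell to 66.9 and 68.9 TPM at E13.5 and 56.0 and 44.5 TPM at E14.5, against 160 TPM at E10.5 and 112 and 143 TPM at E11.5 (-1.22 ± 0.18 SE, adjusted p = 0.00108), and Otx1 and Otx2 fell by 1.28 each. Lhx2 (-0.27), Emx1 (0.34) and Nr2f1 (-0.06) were not called. Msx1, Msx2 and Bmp4 are also expressed by head mesenchyme and surface ectoderm. Markers of both moved with them. The meningeal and fibroblast list had 8 of 12 members lower (9 without the E10.5 library) and 2 higher, and all 8 tested markers of surface ectoderm were lower (7 without the E10.5 library), with a summed level of 6.06 to 8.32 TPM in late and 38.2 to 101.5 TPM in early libraries, 5 of them passing the filter through the early libraries alone; their part in these results was not tested.

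The machinery of neurons rose almost as a whole. Of 26 tested genes (27 listed) of the neuronal cytoskeleton and of migration, 25 rose and none fell (median 1.86). Mapt, the axonal protein tau (ENSMUSG00000018411.13, chromosome 11, 104231390 to 104332090), had 247 and 237 TPM at E13.5 and 346 and 341 TPM at E14.5, against 5.01 TPM at E10.5 and 27.0 and 34.7 TPM at E11.5 (3.99 ± 0.54 SE, adjusted p = 0.000721). Dcx, which binds microtubules in migrating neurons (ENSMUSG00000031285.10, chromosome X, 143855842 to 143933311), had 280.4 and 299 TPM at E13.5 and 376 and 345 TPM at E14.5, against 10.8 TPM at E10.5 and 50.2 and 93.0 TPM at E11.5 (3.08 ± 0.59, adjusted p = 0.00326). For both, the late libraries stood above every early one, and the E11.5 libraries above the E10.5 library.

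Tubb3, the neuronal tubulin most used to mark neurons, had 1655 and 1568 TPM at E13.5 and 1373 and 1462 TPM at E14.5, against 241 TPM at E10.5 and 848 and 724 TPM at E11.5 (1.51 ± 0.38 SE). It was already high at E11.5, and without the E10.5 library its change of 0.95 was not called. In all, 21 members rose without that library. The tubulin genes Tuba1a (1.21), Tubb2a (2.65) and Tubb2b (1.41, not called without the E10.5 library) rose too, with the reservation that near-identical tubulin copies can share reads. The neurofilament gene Nefm (0.87) was the tested member not called.

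Regulators of neuronal RNA rose in 15 of 20 members with 1 lower (median 1.54), and in 11 without the E10.5 library. Rbfox1, a neuronal splicing factor (ENSMUSG00000008658.11, chromosome 16, 5885355 to 7411526), had 25.1 and 23.8 TPM at E13.5 and 36.7 and 35.2 TPM at E14.5, against 0.36 TPM at E10.5 and 2.24 and 2.68 TPM at E11.5 (3.60 ± 0.34 SE, adjusted p = 0.000168). The member that fell was Ptbp1, the splicing repressor of non-neuronal cells (ENSMUSG00000006498.12, chromosome 10, 79854427 to 79864771), with 223 and 226 TPM at E13.5 and 179 and 159 TPM at E14.5, against 493 TPM at E10.5 and 406 and 402 TPM at E11.5 (-1.15 ± 0.15, adjusted p = 0.000679). Its neural relative Ptbp2 averaged 221 ± 17 TPM in late and 171 ± 32 TPM in early libraries (SD, n = 4 and 3), with overlapping groups, and was not called (0.38). Celf5 (2.44), Celf4 (2.43), Rbfox3 (2.18) and Elavl4 (1.79) also rose.

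Synaptic genes rose in 26 of 31 members and fell in none (median 1.81; 25 without the E10.5 library). Camk2b, a kinase subunit enriched at synapses (ENSMUSG00000057897.10, chromosome 11, 5969644 to 6066362), had 37.6 and 36.3 TPM at E13.5 and 53.0 and 51.4 TPM at E14.5, against 0.58 TPM at E10.5 and 1.67 and 1.78 TPM at E11.5 (4.30 ± 0.23 SE, adjusted p = 3.03e-05). Syt1, the calcium sensor of vesicle release (ENSMUSG00000035864.10, chromosome 10, 108497650 to 109010982), had 51.5 and 52.0 TPM at E13.5 and 60.2 and 70.6 TPM at E14.5, against 2.55 TPM at E10.5 and 9.62 and 12.2 TPM at E11.5 (2.90 ± 0.40, adjusted p = 0.000781). The groups lay apart for Camk2b and Syt1. Syn2 (3.11) and Snap25 (2.79) followed, and Homer1 (0.40), Nlgn2 (0.53), Vamp2 (0.95) and Camk2a (0.93) were not called.

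Of 29 tested transmitter receptor genes (31 listed) 27 rose and none fell (median 1.94; 26 without the E10.5 library), but 12 of them passed the filter through the late libraries alone and so had to differ. Gria2, the AMPA receptor subunit that limits calcium entry (ENSMUSG00000033981.10, chromosome 3, 80681450 to 80802835), had 104 and 110.1 TPM at E13.5 and 193 and 159 TPM at E14.5, against 1.07 TPM at E10.5 and 12.6 and 20.8 TPM at E11.5 (4.02 ± 0.70 SE, adjusted p = 0.00218). The NMDA receptor subunit gene Grin2b (ENSMUSG00000030209.10, chromosome 6, 135713233 to 136173511) had 9.96 and 10.1 TPM at E13.5 and 15.2 and 13.6 TPM at E14.5, against 0.08 TPM at E10.5 and 0.28 and 0.59 TPM at E11.5 (3.33 ± 0.20, adjusted p = 3.58e-05). For Gria2 no early library reached any late one. The glycine receptor gene Glra2 (3.94), for an inhibitory transmitter, rose alongside, and Grik5 (0.48) and Chrna4 (0.20) were not called. Grin2b and Glra2 were among the 12 members that had to differ.

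Channels and chloride transporters rose in 17 of 23 tested members (25 listed) and fell in none (median 1.65), and 3 of the 23 passed the filter through the late libraries alone. The transporter pair that sets whether GABA excites or inhibits a neuron was unequal. Slc12a5, which exports chloride (ENSMUSG00000017740.12, chromosome 2, 164960802 to 164999731), rose to 10.7 and 10.1 TPM at E13.5 and 15.6 and 16.3 TPM at E14.5, against 2.08 TPM at E10.5 and 2.82 and 4.22 TPM at E11.5 (1.82 ± 0.23 SE, adjusted p = 0.000553). Slc12a2, which imports it, averaged 19.2 ± 1.6 TPM in late and 18.2 ± 5.3 TPM in early libraries (SD, n = 4 and 3), with overlapping groups (0.10, not called). Whether the changes of Slc12a5 and Slc12a2 differ was not tested.

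Genes of axon guidance and adhesion rose in 20 of 34 members (median 1.32; 18 without the E10.5 library, with 1 lower), led by the adhesion gene Chl1 (ENSMUSG00000030077.9, chromosome 6, 103510586 to 103750211), with 43.9 and 43.2 TPM at E13.5 and 87.9 and 94.8 TPM at E14.5, against 0.47 TPM at E10.5 and 4.89 and 8.10 TPM at E11.5 (3.90 ± 0.59 SE, adjusted p = 0.00112). Epha5 (3.45), Cntn2 of early cortical axons (3.04), Plxna4 (2.84) and Dcc (1.74) rose, while the ligands Ntn1 (0.06), Slit2 (0.10) and Sema3a (0.45) were not called. Robo3, a receptor known from axons that cross the midline, stood at -1.09 (adjusted p = 0.0758) with overlapping groups and was called lower without the E10.5 library (-1.69).

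Genes of the cell cycle are described next, and promoters of 2 replication and 2 mitosis genes are shown first. The sequences are RefSeq's on GRCm38.p6, from 250 bases before to 50 bases after the gene's start, 5′ to 3′ on the gene's strand. Capitals mark 3 kinds of motif on either strand: the E2F motif (TTTGGCGC or TTTCCCGC), the cell cycle homology region or CHR (TTTGAA), and the CCAAT box (CCAAT). The replication genes shown are the 2 that fell most among called members with an E2F motif in a window. The mitosis genes shown are the 2 that fell most among called members with a CHR. Those motifs were thus present by choice. Cdt1 lies at chr8:122567765-122568064 (plus strand), Mcm3 at chr1:20820263-20820562 (minus strand), Plk1 at chr7:122159185-122159484 (plus strand) and Aurka at chr2:172370521-172370820 (minus strand).
Cdt1: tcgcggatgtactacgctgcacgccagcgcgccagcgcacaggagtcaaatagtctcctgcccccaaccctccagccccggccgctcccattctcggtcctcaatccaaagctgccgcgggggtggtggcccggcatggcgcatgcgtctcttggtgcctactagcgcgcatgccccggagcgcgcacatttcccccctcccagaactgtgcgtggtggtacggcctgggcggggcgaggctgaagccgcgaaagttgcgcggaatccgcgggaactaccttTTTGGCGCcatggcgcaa
Mcm3: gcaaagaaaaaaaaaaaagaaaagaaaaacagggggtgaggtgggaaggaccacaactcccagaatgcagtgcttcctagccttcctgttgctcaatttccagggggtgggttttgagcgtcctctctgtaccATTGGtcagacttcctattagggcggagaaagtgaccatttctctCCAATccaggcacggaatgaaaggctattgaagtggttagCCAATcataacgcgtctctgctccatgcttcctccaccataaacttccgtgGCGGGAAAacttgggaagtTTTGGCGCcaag
Plk1: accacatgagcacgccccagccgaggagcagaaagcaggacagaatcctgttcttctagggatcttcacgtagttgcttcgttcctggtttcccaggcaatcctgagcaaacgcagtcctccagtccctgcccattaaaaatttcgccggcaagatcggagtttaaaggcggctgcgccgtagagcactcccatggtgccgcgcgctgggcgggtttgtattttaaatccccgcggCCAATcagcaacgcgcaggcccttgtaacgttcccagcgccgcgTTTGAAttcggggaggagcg
Aurka: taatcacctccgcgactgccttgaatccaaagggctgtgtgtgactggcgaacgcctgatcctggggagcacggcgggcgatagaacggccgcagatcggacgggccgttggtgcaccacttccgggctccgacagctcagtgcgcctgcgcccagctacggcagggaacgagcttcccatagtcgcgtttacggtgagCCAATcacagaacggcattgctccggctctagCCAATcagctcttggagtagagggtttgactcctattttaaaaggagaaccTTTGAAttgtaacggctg
The Cdt1 window holds 1 E2F motif and the Mcm3 window 2 of them with 3 CCAAT boxes, while the Plk1 window holds 1 CHR with 1 CCAAT box and the Aurka window 1 CHR with 2 CCAAT boxes. An E2F motif was in the windows of 9 of 25 replication genes (36%) and 0 of 24 mitosis genes that had an entry, against 1.56% of all 32851 windows and 3.4% of tested genes with an entry. A gene was counted if any of its windows held the motif, so shares of genes and of windows are not the same measure. A CHR was in 3 of 25 replication genes (12%) and 19 of 24 mitosis genes (79.2%), against 17.9% and 13.9%. The CCAAT box was in 16 of 25 (64%) and 20 of 24 (83.3%), against 37.4% and 43.2%. These shares describe letters in a window and say nothing of what binds there.

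All 30 genes of DNA replication had negative changes and groups that did not overlap, beside 46.6% and 56.2% of all tested genes, and 16 of them passed the fold threshold (median -1.03; 19 without the E10.5 library). Cdt1, which loads the replicative helicase (ENSMUSG00000006585.2), had 22.8 and 22.1 TPM at E13.5 and 14.4 and 12.8 TPM at E14.5, against 62.7 TPM at E10.5 and 47.5 and 49.8 TPM at E11.5 (-1.55 ± 0.22 SE, adjusted p = 0.000846). Mcm3, a subunit of that helicase (ENSMUSG00000041859.10), had 101 and 103 TPM at E13.5 and 72.4 and 60.7 TPM at E14.5, against 283 TPM at E10.5 and 205 and 198 TPM at E11.5 (-1.45 ± 0.21, adjusted p = 0.00104). Pcna, the sliding clamp, differed less, at 424 ± 26 TPM in late and 565 ± 83 TPM in early libraries (SD, n = 4 and 3; -0.41, adjusted p = 0.0282). Licensing and helicase genes, among them Orc1 (-1.45), Cdc6 (-1.29), Mcm5 (-1.27) and Mcm2 (-1.26), passed the threshold, and the polymerase genes Pola1 (-0.32) and Prim1 (-0.36) did not.

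All 30 mitosis genes also had negative changes, beside 46.6% of all tested genes, but 7 passed the threshold (median -0.69; 8 without the E10.5 library). Plk1, a kinase of mitotic entry (ENSMUSG00000030867.6), had 53.0 and 54.1 TPM at E13.5 and 36.2 and 28.2 TPM at E14.5, against 137 TPM at E10.5 and 103 and 107 TPM at E11.5 (-1.45 ± 0.23 SE, adjusted p = 0.00151). Aurka, a spindle pole kinase (ENSMUSG00000027496.11), had 49.98 and 50.9 TPM at E13.5 and 40.1 and 30.1 TPM at E14.5, against 120 TPM at E10.5 and 98.6 and 95.1 TPM at E11.5 (-1.29 ± 0.19, adjusted p = 0.001). Top2a, which untangles chromosomes, was not called, with 332 and 376 TPM at E13.5 and 334 and 281 TPM at E14.5, against 383 TPM at E10.5 and 525 and 578 TPM at E11.5 (-0.57 ± 0.17, adjusted p = 0.0208). The E10.5 library was the highest for Plk1 and Aurka and the lowest early library for Top2a. The count of mitosis genes called lower was 3 without the second E14.5 library, 11 without either E13.5 library, and 11 under median-of-ratios scaling.

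Among the G1 regulators 6 of 25 tested members (27 listed) fell and none rose (median -0.62; 4 without the E10.5 library and 3 without the second E14.5 library). The D cyclins parted. Ccnd1 (ENSMUSG00000070348.4, chromosome 7, 144929931 to 144939925) fell to 85.8 and 93.6 TPM at E13.5 and 48.1 and 51.5 TPM at E14.5, against 217 TPM at E10.5 and 242 and 264 TPM at E11.5 (-1.83 ± 0.24 SE, adjusted p = 0.000653), and Ccnd3 fell by 1.89. Ccnd2 (ENSMUSG00000000184.9, chromosome 6, 127125162 to 127152193), the D cyclin known from basal cortical progenitors, had 289.7 and 314 TPM at E13.5 and 230.2 and 223 TPM at E14.5, against 157 TPM at E10.5 and 170 and 251 TPM at E11.5 (0.47 ± 0.19, not called). The cell cycle inhibitors Cdkn1b (0.67), Cdkn2c (0.79) and Cdkn1c (-0.67) were not called.

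The series concerns DNA methylation, so its machinery was followed gene by gene. Of 20 tested genes (21 listed) that write, read or remove methylation, 2 were higher and 3 lower, with a median of -0.34. Over all tested genes 11.7% were called higher and 4.97% lower. Uhrf1, which brings the maintenance methyltransferase to newly copied DNA (ENSMUSG00000001228.10, chromosome 17, 56303321 to 56323486), fell to 97.0 and 105 TPM at E13.5 and 87.6 and 62.3 TPM at E14.5, against 225 TPM at E10.5 and 238 and 262 TPM at E11.5 (-1.47 ± 0.17 SE, adjusted p = 0.000406). Dnmt1, that methyltransferase (ENSMUSG00000004099.11, chromosome 9, 20907209 to 20959888), had 97.3 and 98.3 TPM at E13.5 and 82.5 and 72.7 TPM at E14.5, against 155 TPM at E10.5 and 127 and 152 TPM at E11.5. Its groups did not overlap either, and its change of -0.72 ± 0.14 (adjusted p = 0.00328) was under the threshold.

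The de novo methyltransferase Dnmt3b (ENSMUSG00000027478.11, chromosome 2, 153649450 to 153687730) fell to 4.42 and 4.41 TPM at E13.5 and 3.74 and 3.58 TPM at E14.5, against 16.9 TPM at E10.5 and 9.47 and 10.95 TPM at E11.5 (-1.38 ± 0.19 SE, adjusted p = 0.000768). Its relative Dnmt3a (ENSMUSG00000020661.11, chromosome 12, 3806007 to 3914443) was the more abundant transcript in every library, with 63.6 ± 7.8 TPM in late and 85.4 ± 8.5 TPM in early ones (SD, n = 4 and 3; -0.42, adjusted p = 0.0228). Of the enzymes that oxidise methylcytosine, Tet1 stood at 13.97 ± 0.6 TPM in late and 7.80 ± 3.16 TPM in early libraries (0.84, adjusted p = 0.0193), Tet2 at 13.2 ± 1.8 TPM in late and 8.08 ± 2.56 TPM in early ones (0.67, adjusted p = 0.0205) and Tet3 at 32.0 ± 3.5 TPM in late and 27.2 ± 7.0 TPM in early ones (0.25). None of the 3 was called, and Tet1 was called higher (1.06) without the second E11.5 library. For Tet1 and Tet2 the late libraries lay above the early ones, and for Tet3 the groups overlapped.

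The remaining calls of the methylation list were Hells (-1.02), a remodeller that methylation of repeats depends on, which stood at -0.94 without the E10.5 library, and the methyl-CpG binding zinc finger genes Zbtb38 (1.33) and Zbtb4 (1.03; 0.86 and not called without the E10.5 library). Gadd45a (-0.91) was not called with all libraries and was called lower without the E10.5 library. The list counts under quantile normalization were 1 higher and 5 lower. Of 20 Polycomb genes 1 fell, Cbx2 (-1.16), near the share of 4.97% of all tested genes called lower. The H3K27 methyltransferase gene Ezh2 was not called (-0.39), and the median over the list was 0.07.

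Genes that later mark astrocytes and the switch to gliogenesis rose in 11 of 16 tested members (20 listed) with 1 lower (median 1.86; 12 higher without the E10.5 library). Nfix, a nuclear factor I gene (ENSMUSG00000001911.12, chromosome 8, 84699876 to 84800344), had 89.8 and 98.5 TPM at E13.5 and 101 and 83.3 TPM at E14.5, against 1.57 TPM at E10.5 and 8.68 and 11.9 TPM at E11.5 (3.77 ± 0.48 SE, adjusted p = 0.000528). Aldoc, a glycolytic enzyme of radial glia and astrocytes (ENSMUSG00000017390.11, chromosome 11, 78322968 to 78327781), had 128 and 133 TPM at E13.5 and 135 and 105 TPM at E14.5, against 3.44 TPM at E10.5 and 6.11 and 6.14 TPM at E11.5 (4.36 ± 0.19, adjusted p = 2.42e-05). Both were higher in every late library than in any early one. Nfib (3.10) and Nfia (2.29), which neurons express as well, rose with them, as did the matrix gene Bcan (3.02), which passed the filter through the late libraries alone, and 4 members, Gfap, Aqp4, S100b and Hepacam, did not pass the filter. Of 8 tested oligodendrocyte genes (12 listed) none rose and 1 fell, Pdgfra (-1.37), a gene that fibroblasts share. Without the E10.5 library Sox8 was called higher.

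Most called enzymes of glycolysis fell. Of 22 members 10 fell and 3 rose (median -0.98). The lactate exporter gene Slc16a3 (ENSMUSG00000025161.12, chromosome 11, 120948480 to 120960868) had 5.64 and 6.65 TPM at E13.5 and 4.37 and 5.38 TPM at E14.5, against 51.9 TPM at E10.5 and 39.8 and 35.5 TPM at E11.5 (-2.73 ± 0.17 SE, adjusted p = 4.64e-05), a gap with no overlap. Hk2 (-1.45), Ldha (-1.30), Aldoa (-1.27) and Eno1 (-1.22) fell, while Aldoc, the neuronal enolase gene Eno2 (1.65) and Pfkp (2.19) rose. Without the E10.5 library 5 fell and 3 rose, and Gapdh, which had 6091 TPM in that library, was among those that lost their call (-0.71).

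Markers of other cell types moved between the groups as well. Among the globins of blood, all 3 embryonic genes were called lower and 1 of 4 adult genes was called higher. The embryonic beta-globin gene Hbb-bh1 (ENSMUSG00000052217.5, chromosome 7, 103841637 to 103843164) had 31.6 and 23.2 TPM at E13.5 and 8.59 and 12.99 TPM at E14.5, against 2389 TPM at E10.5 and 2182 and 2478 TPM at E11.5 (-7.03 ± 0.37 SE, adjusted p = 2.88e-05). The adult gene Hbb-bs (ENSMUSG00000052305.5, chromosome 7, 103826534 to 103828096) had 1911 and 1747 TPM at E13.5 and 1670.0 and 1857 TPM at E14.5, against 39.5 TPM at E10.5 and 200.2 and 146 TPM at E11.5 (4.08 ± 0.47, adjusted p = 0.000351). The embryonic globin Hba-x fell by 5.15, and 6 of 7 tested other erythroid genes fell, among them Slc4a1 (-3.90), but 3 of the 7 passed the filter through the early libraries alone and so had to differ. The 3 embryonic globins summed to 931 to 2373 TPM in late and 9605 to 13759 TPM in early libraries. The 4 adult globins had overlapping sums, of 5388 to 8148 TPM in late and 4176 to 7085 TPM in early libraries. Their median change was 0.53, and 0.03 without the E10.5 library.

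Genes of head mesenchyme were among the 12 largest falls of genes that averaged 5 TPM or more in early libraries. Six2 (ENSMUSG00000024134.11, chromosome 17, 85684277 to 85688274) had 2.02 and 1.12 TPM at E13.5 and 0.99 and 1.22 TPM at E14.5, against 72.3 TPM at E10.5 and 33.2 and 34.0 TPM at E11.5 (-4.27 ± 0.28 SE, adjusted p = 5.38e-05). Alx1 (-3.66) and Twist1 (-3.63) fell alike, but Alx1 passed the filter through the early libraries alone and so had to differ. Of the lists for other tissues, cartilage and muscle summed to 38.8 to 48.1 TPM in late and 131 to 165 TPM in early libraries, and eye and lens to 3.39 to 4.59 TPM in late and 5.91 to 27.8 TPM in early ones. Endothelial markers summed to 227 to 245 TPM in late and 328 to 373 TPM in early libraries, with 1 of 12 called higher and none lower (1 and 2 under quantile and under median-of-ratios scaling). Microglial markers lay at 75.3 to 95.6 TPM in late and 47.3 to 71.3 TPM in early libraries, with 1 of 11 called higher. For both lists the share called higher was near the 11.7% of all tested genes.

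Ttr, the transthyretin secreted by choroid plexus and liver (ENSMUSG00000061808.3, chromosome 18, 20665280 to 20674321), had 702 and 500.1 TPM at E13.5 and 626 and 501 TPM at E14.5, against 0.63 TPM at E10.5 and 17.6 and 13.3 TPM at E11.5 (6.25 ± 0.73 SE, adjusted p = 0.000382). Of the choroid plexus list Htr2c (1.96) and Kcnj13 (2.22), which passed the filter through the late libraries alone, also rose, Otx2 fell, and Aqp1 (0.72), Folr1 (0.77) and Clic6 (0.88) were not called. The liver gene Alb reached no more than 1.63 TPM in a late library, and was at 8.82 TPM in the first E11.5 library.

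**Figure D3:**
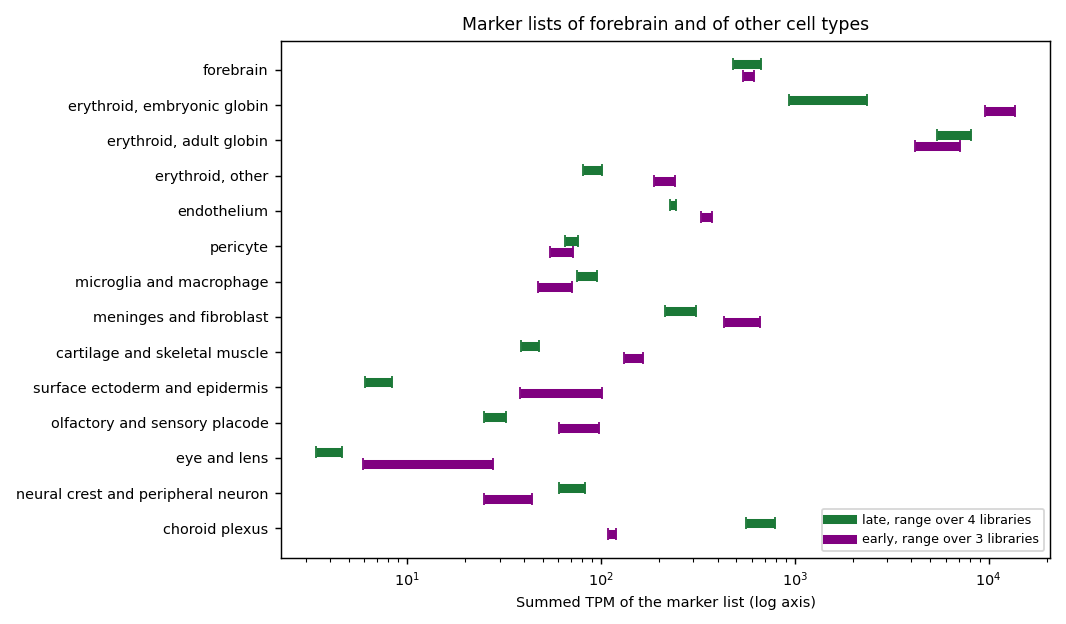
Range over libraries of the summed TPM of marker lists for forebrain and for other cell types on a log axis, late (green, 4 libraries) above early (purple, 3 libraries). Forebrain markers overlap between the groups, those of embryonic globin, surface ectoderm, meninges and cartilage are lower in late libraries, and those of choroid plexus are higher.

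The change was split at the sampled stages by a fit with 1 mean per stage. Between E13.5 and E11.5, 1229 genes (8.22%) were higher and 564 (3.77%) lower at E13.5. Between E14.5 and E13.5, 50 (0.335%) were higher and 29 (0.194%) lower at E14.5, and 3705 genes had an unadjusted p below 0.05. The second pair of counts depended on single libraries. They were 8 and 9 without the first E13.5 library and 1 higher without either E14.5 library, with 0 lower without the first and 6 without the second. Leaving out the second E13.5 library gave 24 higher, and leaving out either E11.5 library gave 45 lower. Of the genes not called between late and early libraries, 18 were lower at E13.5 than at E11.5 and higher at E14.5 than at E13.5, and 13 were the opposite.

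Among named genes the later step called Hmga2 (-1.10), Hbb-bh1 (-1.28) and Hba-x (-2.08) lower and Chl1 (1.05), Sla (1.41) and Pfkp (1.03) higher at E14.5. Mid1, a microtubule-associated ubiquitin ligase, had 71.0 and 71.1 TPM at E14.5, against 21.6 and 21.6 TPM at E13.5, a difference of 1.67. Its stage means were 28.9 TPM at E11.5, 29.4 TPM at E12.5, 21.6 TPM at E13.5, 71.0 TPM at E14.5 and 13.2 TPM at E15.5, so the 2 E14.5 libraries stood alone. The mitochondrial gene mt-Co3 had 3779 and 14260 TPM at E14.5, against 668 and 920.3 TPM at E13.5, with replicates far apart. The small RNA Rn7sk had 769 TPM in the first E13.5 library and 4.07 to 26.3 TPM in the other 6.

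E12.5 forebrain, which entered neither group, served as a check on the order of change. Its mean lay between the late and early means for 1673 of the 1742 higher genes (96%) and for 674 of the 743 lower ones (90.7%). By E12.5 the median higher gene had covered 61.4% of its change from early to late and the median lower gene 27.7%; the difference between the 2 was not tested. Twist1 showed the late fall of mesenchymal genes, with stage means of 47.3 TPM at E10.5, 26.2 TPM at E11.5, 26.7 TPM at E12.5, 1.77 TPM at E13.5 and 1.57 TPM at E14.5. Neurod6 had 0.04, 6.85, 54.3, 258 and 449 TPM at the same stages, and Mapt 5.01, 30.8, 101, 242 and 344 TPM. The E12.5 libraries held 112 and 3.64 TPM of the liver gene Alb.

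By P0, 762 of the 1742 higher genes lay at least 1 log2 unit above their late mean and 52 at least 1 below it, and 180 of the 743 lower genes lay at least 1 below it and 46 at least 1 above it. Lists separated by how they went on. Relative to E11.5, the median transmitter receptor gene stood at -0.63 at E10.5, 1.43 at E13.5, 1.90 at E14.5 and 3.34 at P0, and the median synaptic gene at -0.89, 1.48, 1.68 and 3.16. Ventral genes reached 1.10 at E13.5 and were at 0.36 at P0. The median proneural gene stood at -1.06 at E10.5, 0.23 at E12.5, 0.00 at E13.5, -0.26 at E14.5 and -1.84 at P0, so that its high point fell between the groups compared. The median mitosis gene was at -0.09 at E10.5, -0.62 at E13.5, -0.88 at E14.5 and -3.64 at P0.

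**Figure D4:**
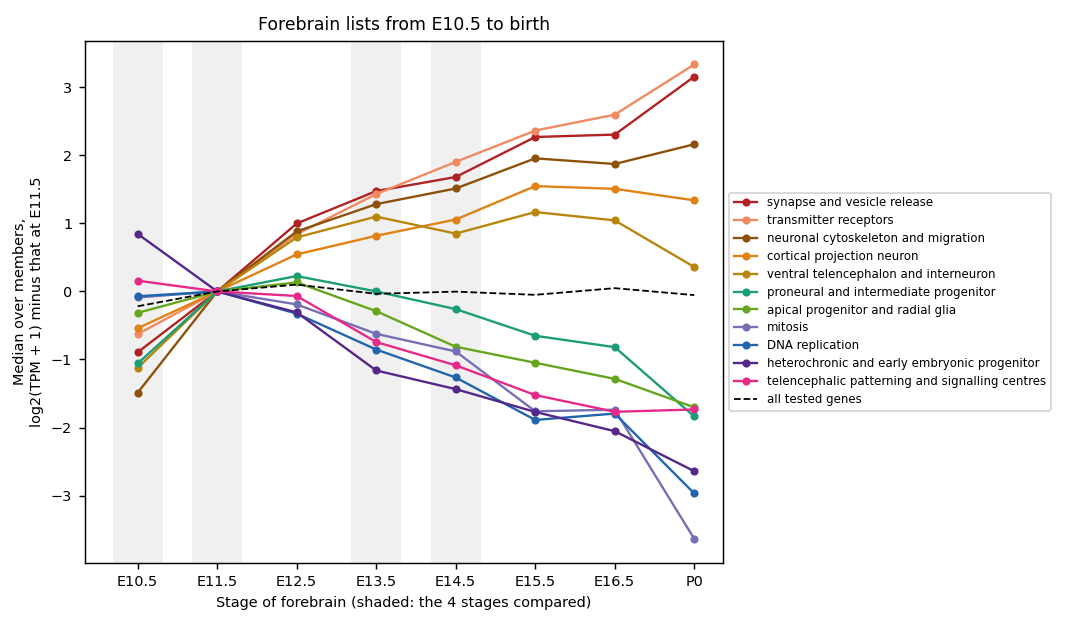
Median over the members of 11 lists of log2(TPM + 1) at each forebrain stage minus that at E11.5, in time order, with all tested genes as a dashed line; the 4 stages compared are shaded. Synaptic and transmitter receptor lists end at 3.16 and 3.34 at P0, proneural genes peak at E12.5 at 0.23, and the mitosis and heterochronic lists end at -3.64 and -2.64.

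The change in forebrain was set against the mean change of midbrain and hindbrain over the same stages, with 8 libraries each, in 1 fit of 23 libraries. Of 16388 genes tested, 319 (1.95%) had a higher and 242 (1.48%) a lower change in forebrain. E10.5 is 1 of 3 early libraries in forebrain and 2 of 4 in the other regions. Without the E10.5 libraries of all 3 regions the counts were 317 and 199. All 30 mitosis genes had a higher change in forebrain, and 29 of them without the E10.5 libraries. Their median change was -0.69 in forebrain, -2.01 in midbrain and -2.37 in hindbrain. Top2a averaged 331 TPM in late and 495 TPM in early forebrain, against 117 TPM in late and 448 TPM in early midbrain and 63.4 TPM in late and 376 TPM in early hindbrain, a difference of changes of 1.70 ± 0.29 (SE; adjusted p = 0.000581). The early means of Top2a differed less among the 3 regions than the late ones.

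Replication genes differed in the same direction, 30 of 30 with a positive difference, beside 45.8% of all genes tested in forebrain, and 11 past the threshold (9 without the E10.5 libraries), among them Mcm3 (1.27) and Cdc6 (1.29). Ccnd2 averaged 264 TPM in late and 193 TPM in early forebrain, against 102 TPM in late and 286 TPM in early midbrain and 38.7 TPM in late and 197 TPM in early hindbrain, a difference of 2.40 ± 0.25 (SE; adjusted p = 5.75e-06). Of the methylation genes Uhrf1 (1.13), Hells (1.32) and Gadd45g (1.05) had a higher change in forebrain, while Dnmt1 (0.03) and Dnmt3b (0.06) were not called. Without the E10.5 libraries 2 members of that list had a higher change.

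Proneural genes had a higher change in forebrain in 9 members and a lower one in none, and in 6 without the E10.5 libraries. Neurog2 averaged 102 TPM in late and 59.4 TPM in early forebrain, against 34.4 TPM in late and 51.0 TPM in early midbrain and 9.61 TPM in late and 31.0 TPM in early hindbrain (difference 1.96 ± 0.45 SE, adjusted p = 0.00603). Neurod4 (2.33), Insm1 (1.48) and Neurog1 (1.25) were in the same count, with Neurog1 not called without the E10.5 libraries (0.96). The synaptic list had no member with a called difference (1 higher without the E10.5 libraries), and its median change was 1.81 in forebrain, 2.20 in midbrain and 2.21 in hindbrain. Of the transmitter receptors 1 had a higher change in forebrain, Grm2 (2.17), and 4 a lower one (3 without the E10.5 libraries).

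Genes of forebrain neurons had some of the largest called positive differences. Tiam2, an activator of Rac (ENSMUSG00000023800.10, chromosome 17, 3326573 to 3531344), averaged 33.7 TPM in late and 1.88 TPM in early forebrain, against 1.79 TPM in late and 1.04 TPM in early midbrain and 3.28 TPM in late and 2.81 TPM in early hindbrain (3.24 ± 0.24 SE, adjusted p = 1.49e-07). Ppp1r1b (3.23), Sst (2.74), Sstr2 (2.69), Slc17a7 (2.43) and Lhx6 (2.44) followed, and 9 of 25 ventral genes (5 without the E10.5 libraries) and 7 of 33 cortical genes (6 without them) were in the count. Cntn2 (2.32) was called too, but its late level was not particular to forebrain. It averaged 102 TPM in late and 16.4 TPM in early forebrain. Midbrain had 99.8 TPM in late and 45.2 TPM in early libraries, and hindbrain 74.45 TPM in late and 75.9 TPM in early ones. The rise of Sst was 4.29 in forebrain, 2.003 in midbrain and 1.10 in hindbrain, and the difference was 1.61 without the E10.5 libraries. Neurod6, with 25.1 TPM in late midbrain and 63.2 TPM in late hindbrain, was not called (1.52 ± 0.57, adjusted p = 0.0908).

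Tfap2b, of midbrain neurons and of ectoderm (ENSMUSG00000025927.9, chromosome 1, 19208914 to 19238576), averaged 2.43 TPM in late and 22.7 TPM in early forebrain, against 181 TPM in late and 28.7 TPM in early midbrain and 56.3 TPM in late and 50.4 TPM in early hindbrain (-4.05 ± 0.36 SE, adjusted p = 1.23e-06). Olig1, of the oligodendrocyte lineage, changed by 0.33 in forebrain, 1.70 in midbrain and 3.47 in hindbrain (difference -2.25 ± 0.35, adjusted p = 0.000314). Id4 (-1.58), Hopx (-2.19), Wnt8b (-1.49) and Six2 (-1.64) had lower changes in forebrain too. The midbrain and hindbrain regional list, of which 8 of 15 members were tested, had 5 lower and none higher (4 lower without the E10.5 libraries).

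**Figure D5:**
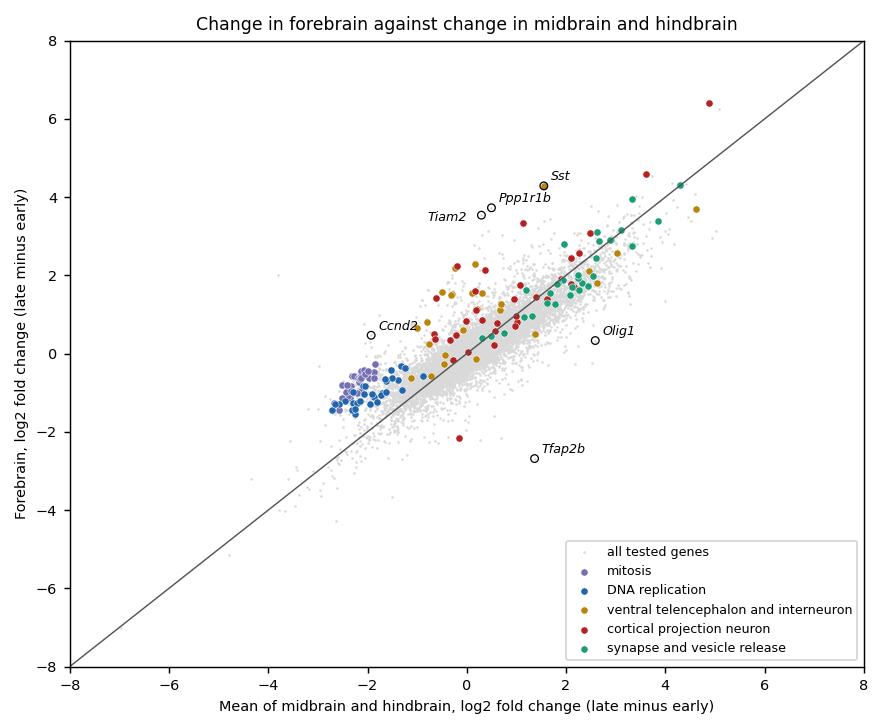
Log2 fold change of late minus early libraries in forebrain (vertical) against the mean of midbrain and hindbrain (horizontal), each point a gene and the line marking equal change. All 30 mitosis genes and all 30 replication genes lie above the line, no synaptic gene has a called difference with the E10.5 libraries included, and Tfap2b and Olig1 lie below the line at differences of -4.05 and -2.25.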

How the data were processed

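RNA-seq of mouse fetal forebrain was compared, with total RNA extracted by an RNeasy lipid tissue kit and libraries made with a TruSeq stranded mRNA kit, per the labels' protocols. The values are gene-level TPM as deposited by the authors. STAR 2.4.0k, RSEM 1.2.23 and mm10 are named in the submitters' processing notes, and the annotation release is not given in the sources used here. Of 61 columns of per-sample values, 4 were not used because their column name and title gave different stages. Gene names and coordinates came from GENCODE M21, with 42462 of 43346 identifiers matched. TPM keeps no read count, so depth is unknown and no count model was used.

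Genes with at least 1 TPM in at least 3 of the 7 libraries were fitted on log2(TPM + 1) with limma 3.58.1 in R 4.3.3 (mean-variance trend, Benjamini-Hochberg adjustment over all genes), and called at an adjusted p below 0.05 and a change of at least 1. Steps used a fit with 1 mean per stage, and regions a fit of 23 libraries. Scripts were tested on simulated data. The members and gene lists were chosen with earlier results of these data known. Named genes were, by rule, up to 4 called and 2 uncalled members per list, the 12 largest rises and falls, the largest of each step and region difference, and a preset list; other list members named as examples were picked after their values were seen. Alternatives were another pseudocount, filters, scalings, fits, the replicate block and leaving out each library. The comparison of E14.5 with E11.5 alone and the region fit without E10.5 were added after seeing the data. Results for some single genes are not reported here.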

Additional observations from a re-analysis of the deposited data

Results flagged for a closer look

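A set of 71 genes was taken from those given with values in the text. The change from early to late stages differed between forebrain and the mean of midbrain and hindbrain for 19 of them, by the test of that difference in the fit of 23 libraries. Other genes named above with a called difference, such as Hells and Neurod4, were not in the set. The difference was positive for Neurog2 (1.96), Neurog1 (1.25) and Sstr2 (2.69) in the list of proneural and intermediate progenitor genes. It was positive for Sst (2.74), Lhx6 (2.44), Ppp1r1b (3.23) and Tiam2 (3.24) among genes of forebrain neurons, and for Cntn2 (2.32) of the axon guidance list. Among cell cycle genes it was positive for Mcm3 (1.27), Pcna (1.13), Plk1 (1.12), Aurka (1.36), Top2a (1.70) and Ccnd2 (2.40), and among methylation genes for Uhrf1 (1.13). It was negative for Wnt8b (-1.49), Six2 (-1.64), Tfap2b (-4.05) and Olig1 (-2.25). Without the E10.5 libraries of the 3 regions, Neurog1 (0.96) and Plk1 (0.88) were not called.

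The small RNA Rn7sk stood at 768.8 TPM in the first E13.5 library, against 26.3, 12.51 and 12.1 TPM in the other late libraries, a gap past Dixon's 95% critical value for 4 samples. Chance gives such a gap in about 1 in 20 groups.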

How the results depend on the processing

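No called change of a named gene reversed its direction under an alternative. The calls of 3 short lists did turn: Cajal-Retzius genes had 1 higher and 3 lower for E14.5 against E11.5 alone, endothelium 1 and 2 under quantile and median-of-ratios scaling, and pericytes 1 and 2 under quantile normalization. Between late and early forebrain the counts of genes higher and lower stayed within 1.5 times of 1742 and 743 under every alternative, from 1371 to 2116 and from 652 to 843 when single libraries were left out. For E13.5 against E11.5 those ranges were 1077 to 1504 and 564 to 643, and for the difference from midbrain and hindbrain 283 to 379 and 191 to 340. Between E14.5 and E13.5 the 50 genes higher became 1 with no filter and 23 with protein-coding nuclear genes only, and ranged from 1 to 66 with single libraries left out. The 29 lower became 54 with all forebrain libraries in the fit, 64 with all tissues, 1 with no filter and 11 with protein-coding nuclear genes only, and ranged from 0 to 45. The 242 genes with a lower change in forebrain became 370 with a pseudocount of 0.1. The causes were not tested. With the replicate block the counts were 1723 and 736, then 1239 and 570, 48 and 33, and 318 and 237. Same-numbered libraries of different stages had deviations that correlated at 0.075, -0.02 and -0.10, so they share only a number. TPM gives no depth, so no counting interval can be given, and the early group has 1 library at E10.5.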
